A study of Sus scrofa with 6 samples.

Results

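POU5F1, also called OCT4, is the transcription factor whose RNA was followed here in porcine extraembryonic endoderm-like (pXEN-like) cells and porcine induced pluripotent stem (piPS) cells. It was read from the row of the Ensembl identifier ENSSSCG00000001393, and it is 1 of 25322 genes listed. The gene was chosen by that identifier, with earlier results of these data known. The 3 pXEN-like libraries came from cells grown out of day 6 to 7 pig blastocysts on mitomycin-treated mouse embryonic fibroblasts, in a serum-free medium with LIF and bFGF. The 3 piPS libraries came from cells that the labels trace to porcine fetal fibroblasts, received as a gift and kept in pEPSCM medium. Both cell types are labelled passage 15 to 25, and neither the labels nor the methods say whether the 3 libraries of a cell type came from separate lines, cultures or animals, so p-values measure only the spread between these libraries. The sets of factors used to make the piPS cells are not given in the sources used here, and a value per gene does not separate transcripts of the POU5F1 locus from those of an introduced copy.

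POU5F1 is a POU-domain DNA-binding protein that, with SOX2 and NANOG, holds the gene programme of the inner cell mass and of pluripotent stem cells in place. Extraembryonic endoderm cells, which are derived from the primitive endoderm, are described as expressing GATA6, GATA4 and SOX17 and as lacking POU5F1, SOX2 and NANOG. POU5F1 is also among the transcription factors that are introduced into somatic cells to reprogramme them, together with SOX2, KLF4 and MYC.

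Levels are FPKM, in which fragments are scaled to the length of the transcript and the size of the library. The files hold no read counts, so the absolute depth is unknown and no counting error can be given. Between 8606 and 9663 genes reached 1 FPKM in a library. Summed over all genes, FPKM reached 2150426 to 10792210 per library, which bears on the scaling between libraries. The summed FPKM of the spike-ins ran from 2160 to 4900 in piPS and from 287 to 438 in pXEN-like libraries.

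POU5F1 was among the more abundant transcripts of piPS cells and was near 1 FPKM or below in pXEN-like cells. Its level was 317, 195 and 398 FPKM in piPS libraries 1, 2 and 3. It was 1.42, 1.05 and 0.0901 FPKM in pXEN-like libraries 1, 2 and 3. The groups did not overlap, since the lowest piPS library was 137 times the highest pXEN-like library. The mean of the 3 piPS libraries was 303 ± 102 FPKM (SD), that of the 3 pXEN-like libraries was 0.855 ± 0.687 FPKM (SD), and their ratio was 355. In cultures sequenced in bulk, fewer cells with the transcript and less transcript per cell cannot be told apart.

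**Figure D1:**
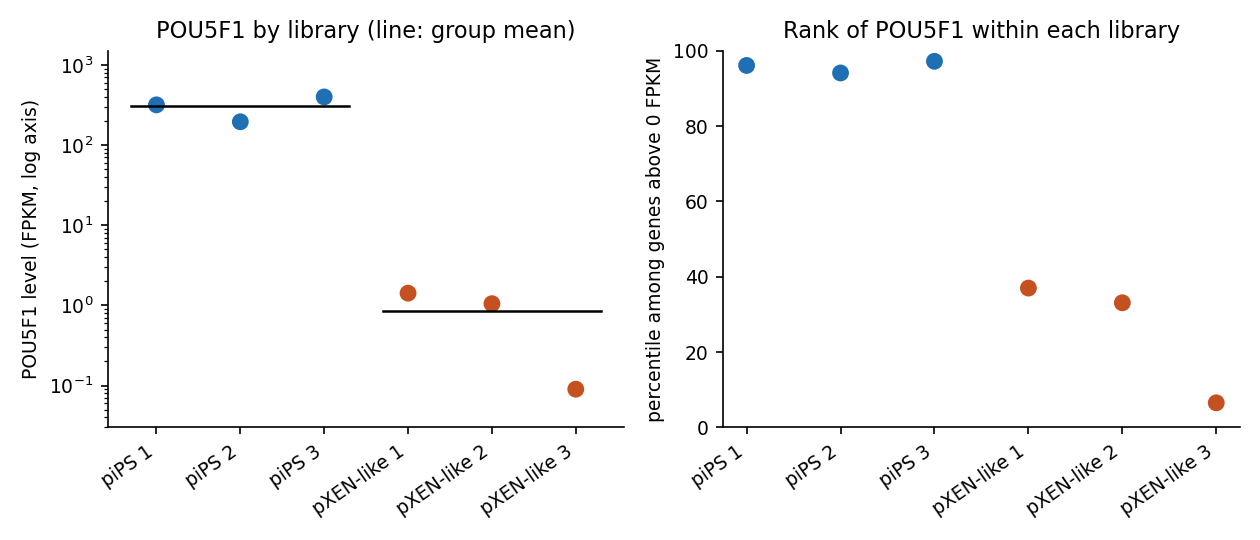
POU5F1 in each library. The left panel gives the level in FPKM on a log axis, with a line at each group mean (303 in piPS and 0.855 in pXEN-like cells), and the right panel gives its percentile among the genes above 0 FPKM of the same library. Blue points are piPS and orange points pXEN-like libraries, all piPS points lie above all pXEN-like points in both panels, and pXEN-like library 3 is the lowest.

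The difference was tested with limma on log2(FPKM + 1) across the 9930 genes that averaged 1 FPKM or more. A gene was called where the Benjamini-Hochberg adjusted p was under 0.05 and the log2 fold change was 1 or more in size. POU5F1 was downregulated in pXEN-like cells with a log2 fold change of -7.38 (SE 0.38, 95% interval -8.27 to -6.48, limma adjusted p = 1.2e-05). A log2 fold change on this scale understates the change of a gene with low values. Of all genes tested, 53.5% were called, 30.2% as lower and 23.3% as higher in pXEN-like cells. Without regard to the test, 40.8% were lower and 35% higher with no overlap between the groups, so neither the call nor the lack of overlap sets POU5F1 apart. Its size did place it at one end of the distribution: 5 of the 9930 genes, POU5F1 included, had a log2 fold change as low or lower. That number was 11 without piPS replicate 3, 9 without piPS replicate 2, 9 with a pseudocount of 0.1 and 11 with spike-in scaling. A two-sided exact permutation test of the log2 values of POU5F1 alone gave p = 0.1, which is the minimum for a design of 3 against 3.

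**Figure D2:**
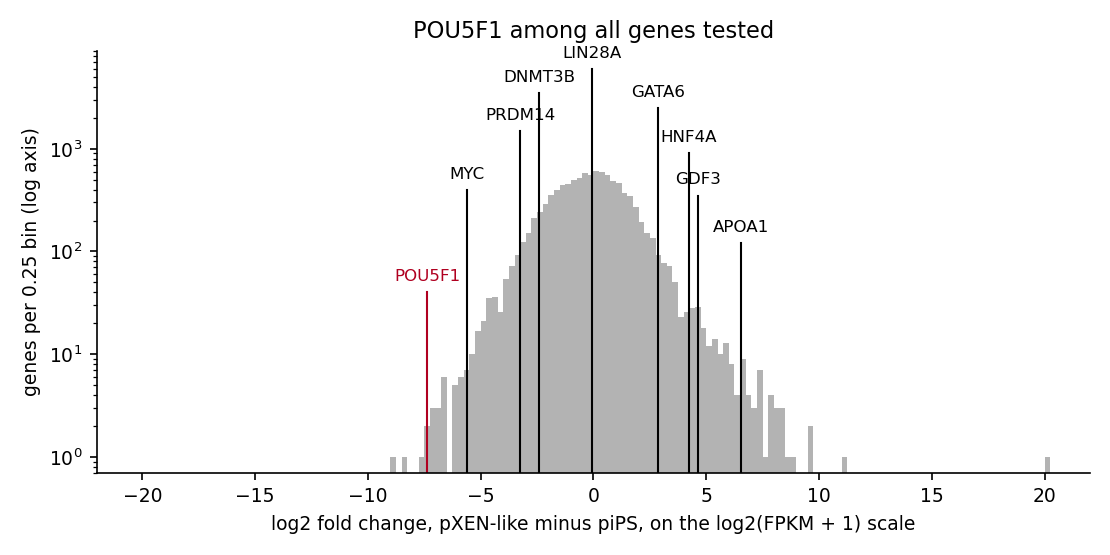
Distribution of the log2 fold change of the 9930 genes tested, pXEN-like minus piPS, with the number of genes per 0.25 bin on a log axis. Vertical lines place POU5F1 at -7.38, near the lower end, and some list genes for comparison, with MYC at -5.61, LIN28A at -0.05 and GDF3 at 4.65; line heights carry no value.

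The rank of a gene within its own library does not depend on the scaling between libraries. In piPS cells POU5F1 stood at rank 525, 773 and 376 from the top in libraries 1, 2 and 3, which is above 96.1%, 94.1% and 97.2% of the genes above 0 FPKM. In pXEN-like cells it stood at rank 8191, 8525 and 11991, above 37.0%, 33.1% and 6.54% of the genes above 0 FPKM. The mean percentile over 3 libraries was 95.8 ± 1.57 (SD) in piPS cells and 25.5 ± 16.6 (SD) in pXEN-like cells. Across all genes listed, 11, POU5F1 included, had both a piPS mean as high or higher and a pXEN-like mean as low or lower.

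POU5F1 was downregulated under each scaling tried, by an amount that depended on it. The lowest piPS library was 125 times the highest pXEN-like library with median-of-ratios scaling, and 255 times with libraries rescaled to 1 total without their 20 highest genes. With scaling to the ERCC spike-ins, synthetic RNAs added to the samples, that factor was 8.02 and the ratio of means 40.8. The log2 fold change was then -4.97 (SE 0.56, limma adjusted p = 3.2e-08). As deposited, the change was larger and the SE smaller (0.38), with a limma adjusted p of 1.2e-05. The smaller p with spike-in scaling is thus not read as stronger evidence. The median of all genes tested moved from -0.13 to 2.49, against which any value with spike-in scaling has to be read. Measured from the median of all genes, POU5F1 was at -7.25 as deposited and at -7.46 with spike-in scaling.

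**Figure D3:**
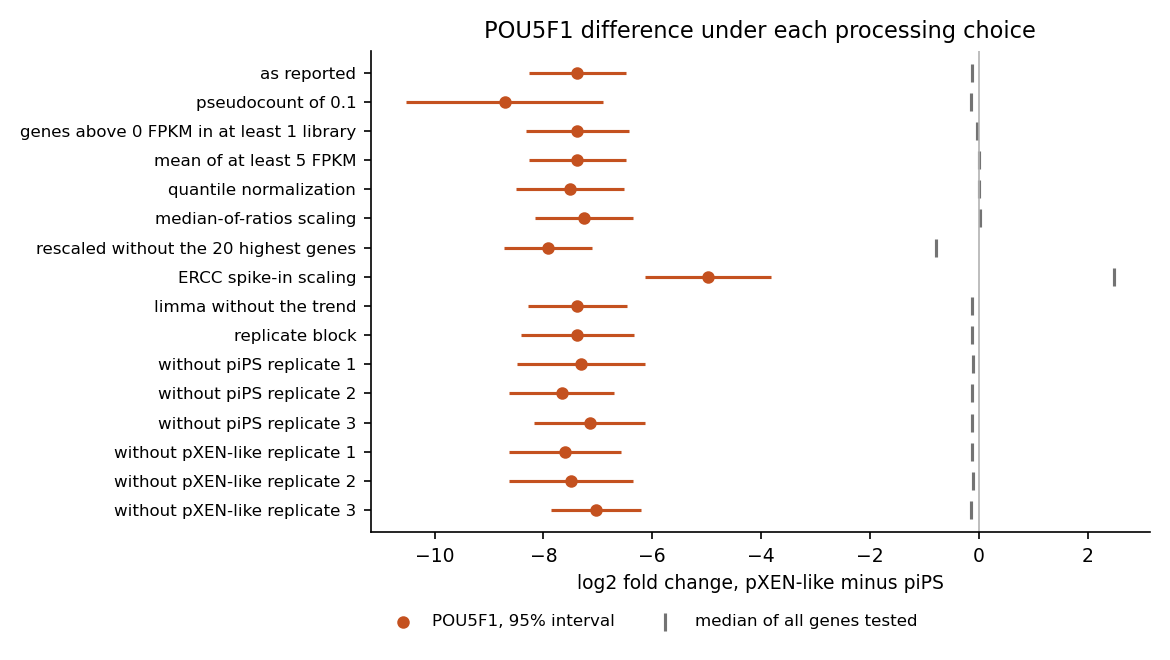
Log2 fold change of POU5F1, pXEN-like minus piPS, under each processing choice, as points with 95% intervals from limma, beside the median of all genes tested as grey ticks. All points lie between -8.71, with a pseudocount of 0.1, and -4.97, with ERCC spike-in scaling, and no interval reaches 0.

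Within the 3 piPS libraries, with the deposited scaling, POU5F1 varied more than most genes of its level. There the highest library was 2.04 times the lowest, a coefficient of variation of 33.7%. The median coefficient of variation was 19.4% among the 1267 genes with a piPS mean of 100 to 1000 FPKM, and 81.3% of them varied less than POU5F1. This place was not computed for other scalings. The piPS mean of POU5F1 was 286 ± 99.6 (SD) with median-of-ratios scaling and 117 ± 78.1 (SD) with spike-in scaling. In pXEN-like cells the highest library was 15.8 times the lowest, a coefficient of variation of 80.4%.

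The low pXEN-like values could be compared in steps of whole fragments. Below 0.5 FPKM, the ratios of the same gene between libraries cluster at the values given by equal small counts, and the most frequent ratio put the depth of pXEN-like libraries 1 and 2 at 0.818 and 0.940 of that of library 3. It was shared by 181 of 1756 and 294 of 1841 genes, so these depths are uncertain. After this correction POU5F1 in libraries 1, 2 and 3 stood at 12.9, 11.0 and 1.00 times its value in library 3. The value of library 3 may thus stand for very few fragments, down to 1, and the absolute number is not known. Of the other 10 genes with a piPS mean of at least 100 FPKM and a pXEN-like mean above 0 and below 2 FPKM, 4 were lowest in pXEN-like library 3, against 27.9% of the genes tested that were above 0 in a pXEN-like library.

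The list of pluripotency genes that holds POU5F1 has 37 members, of which 19 could be paired with an identifier. SOX2 and NANOG were not among them and were not analysed here. Of the 19, 4 were at 0 in every library, 4 more had a mean under 1 FPKM, and 11 were tested. POU5F1, MYC, PRDM14, DNMT3B and ETV4 were called lower, GDF3 and TBX3 were called higher, and 4 were not called, LIN28A and OTX2 among them. Of all genes tested, 30.2% were called lower and 23.3% higher. The median log2 fold change of the 11 was -0.71, against -0.13 for all genes tested. With spike-in scaling 3 of the 11 members, POU5F1, MYC and PRDM14, were called lower, against 484 of the 9930 genes tested. DNMT3B was then at 0.62, below the median of all genes (2.49).

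MYC, a growth regulator and reprogramming factor, came after POU5F1 in the list by log2 fold change. With a pseudocount of 0.1, PRDM14 at -6.19 came before MYC at -5.94. MYC was at 250, 228 and 164 FPKM in the piPS libraries and at 3.54, 3.34 and 3.14 FPKM in the pXEN-like libraries. Its log2 fold change was -5.61 (SE 0.20, limma adjusted p = 3.5e-06). The groups did not overlap, as in 40.8% of all genes tested in this direction. KLF4, another reprogramming factor, was at 0.546, 1.11 and 1.42 FPKM in piPS and at 0.111, 0.0973 and 0.367 FPKM in pXEN-like libraries, and its mean was too low for the test. In piPS libraries the level of POU5F1 was 0.856 to 2.43 times that of MYC and far above that of KLF4.

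PRDM14, a repressor that protects the pluripotent state, was at 11.7, 7.02 and 7.98 FPKM in piPS libraries and at 0, 0.0737 and 0 FPKM in pXEN-like libraries (log2 fold change -3.25, SE 0.23, limma adjusted p = 4.6e-05). DNMT3B, a de novo DNA methyltransferase of the epiblast, was at 60.4, 75.2 and 75.5 FPKM in piPS libraries and at 11.3, 11.0 and 15.0 FPKM in pXEN-like libraries (log2 fold change -2.42, limma adjusted p = 7.4e-05). For both genes the groups did not overlap, which held in this direction for 40.8% of all genes tested. ESRRB, an orphan receptor of naive pluripotency, was at 1.12, 0.649 and 0.0968 FPKM in piPS libraries and listed at 0 in the 3 pXEN-like libraries, below the level tested.

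Other genes of the list were not called lower in pXEN-like cells. GDF3, a TGF-beta family ligand, was at 48.3, 25.1 and 19.5 FPKM in piPS and at 705, 813 and 725 FPKM in pXEN-like libraries (log2 fold change 4.65, SE 0.32, limma adjusted p = 3.9e-05). LIN28A, which binds let-7 precursors and blocks their processing, was at 47.7, 30.2 and 24.2 FPKM in piPS and at 30.7, 30.7 and 33.7 FPKM in pXEN-like libraries, with overlap. The log2 fold change of LIN28A was -0.05 (95% interval -0.65 to 0.56, limma adjusted p = 0.88), and its sign depended on the scaling. OTX2, a homeobox factor that acts beside POU5F1 as cells leave naive pluripotency, was at 389, 361 and 411 FPKM in piPS and at 625, 610 and 664 FPKM in pXEN-like libraries. Its log2 fold change of 0.71 (limma adjusted p = 0.0040) was under the limit of 1 and turned to -0.07 with rescaling without the 20 highest genes. TBX3, a T-box factor, was listed at 0 in the 3 piPS libraries and at 1.62, 4.27 and 1.86 FPKM in the pXEN-like libraries.

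**Figure D4:**
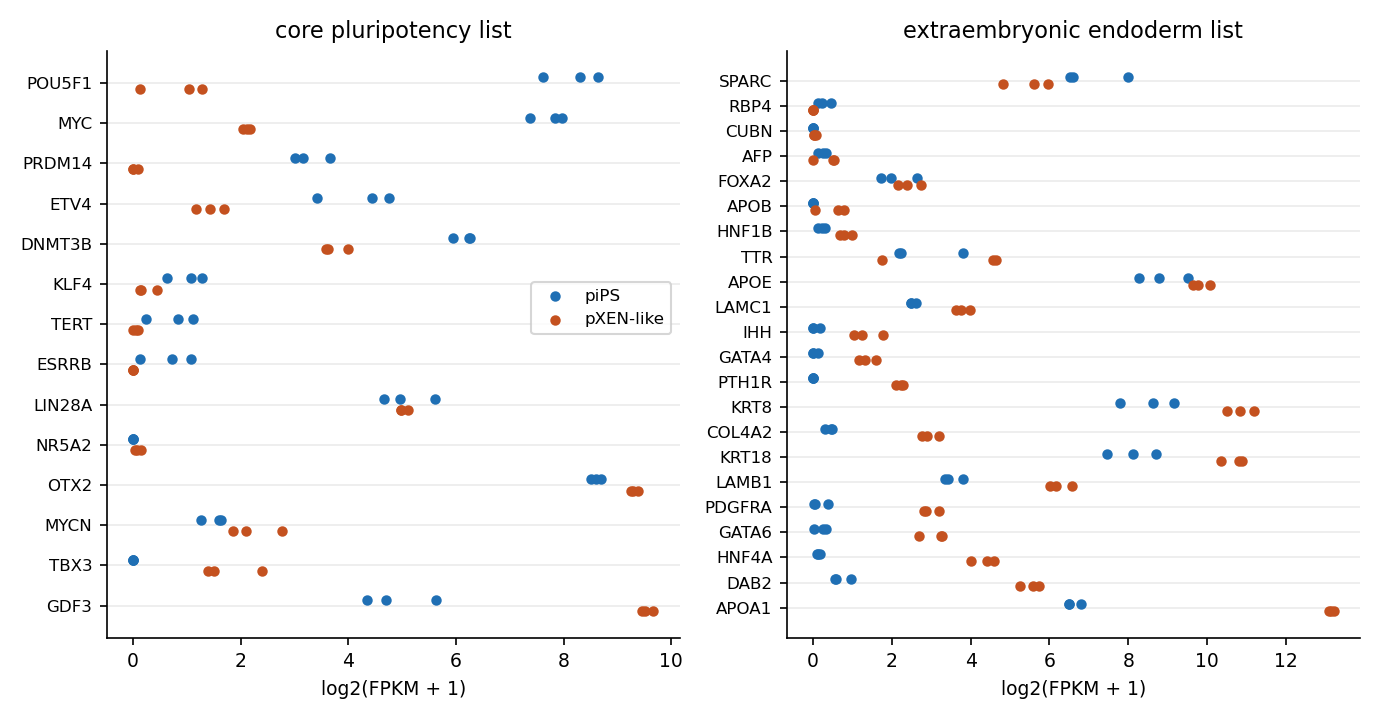
Levels as log2(FPKM + 1) of the list members above 0 FPKM in at least 1 library, save 1 pluripotency member that is not shown, with piPS libraries in blue and pXEN-like libraries in orange, ordered by the difference of the group means. POU5F1 heads the pluripotency list with the widest gap (-7.38), GDF3 lies at the other end (4.65), and most extraembryonic endoderm genes are higher in pXEN-like libraries.

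The label of the pXEN-like cells was checked against genes of extraembryonic endoderm. The piPS label was not checked beyond the pluripotency genes above, of which SOX2 and NANOG were not paired and LIN28A was not called. Of the 34 extraembryonic endoderm genes listed, 23 were paired and 15 tested, of which 11 were called higher and 1 lower in pXEN-like cells, with a median log2 fold change of 2.55. Over all genes tested the shares were 23.3% and 30.2%, and the median was -0.13. SOX17 was not paired and was not analysed here. HNF4A, a nuclear receptor of visceral endoderm, was at 0.0844, 0.0654 and 0.120 FPKM in piPS and at 20.5, 15.2 and 23.1 FPKM in pXEN-like libraries. DAB2, an endocytic adaptor of the primitive endoderm, was at 0.488, 0.463 and 0.944 FPKM in piPS and at 47.1, 52.6 and 37.0 FPKM in pXEN-like libraries. FOXA2 overlapped between the groups, at 2.3, 5.25 and 2.96 FPKM in piPS and at 5.69, 3.44 and 4.19 FPKM in pXEN-like libraries. FOXA2 (log2 fold change 0.31, limma adjusted p = 0.38) and TTR (0.92, limma adjusted p = 0.35) were not called. GATA4 was at 0, 0 and 0.0836 FPKM in piPS and at 1.23, 2.02 and 1.51 FPKM in pXEN-like libraries, below the mean tested. SPARC, a matrix protein of parietal endoderm, was the member called lower (log2 fold change -1.57, limma adjusted p = 0.018). The call of SPARC was lost without pXEN-like replicate 1 (-1.25, limma adjusted p = 0.070). With spike-in scaling SPARC turned to 1.53, below the median of all genes there (2.49).

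POU5F1 was also set against endoderm factors of the same library. GATA6, a factor that specifies primitive endoderm, was at 0.0170, 0.264 and 0.193 FPKM in piPS libraries, where POU5F1 was 18687, 739 and 2064 times as high. The largest of these ratios rests on the GATA6 value of 0.0170 FPKM, near the floor. In pXEN-like libraries GATA6 was at 8.61, 8.51 and 5.49 FPKM, which is 6.06, 8.08 and 61.0 times POU5F1. Ratios to POU5F1 in pXEN-like library 3 rest on its 0.0901 FPKM, which may stand for very few fragments. The order of the pair, compared per transcript length, was thus opposite in the 2 cell types. GATA4 was 0.864, 1.92 and 16.8 times POU5F1 in pXEN-like libraries, so in library 1 POU5F1 was the higher of the pair.

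Markers of other cell types were looked at as well. Of 14 trophoblast genes 7 were paired, and their summed FPKM was 9.45 to 15.8 in piPS and 4.15 to 7.50 in pXEN-like libraries. CDX2, the trophectoderm factor, was at 0.0938 FPKM in pXEN-like library 1 and at 0 in the other libraries. GATA3 was called higher in pXEN-like cells, at 2.96, 6.32 and 3.75 FPKM against 0.173, 0.0977 and 0.0325 FPKM in piPS libraries, and TEAD4 was called lower, except with spike-in scaling. Of 16 fibroblast genes 13 were paired, with summed FPKM of 196 to 351 in piPS and 241 to 286 in pXEN-like libraries, carried mostly by VIM in piPS and by VIM and FN1 in pXEN-like libraries. FN1, a matrix glycoprotein that endoderm cells also make, was called higher, at 3.86, 3.37 and 2.67 FPKM in piPS and at 148, 129 and 128 FPKM in pXEN-like libraries. ACTA2, smooth muscle actin, was called lower (log2 fold change -1.42), and VIM was not called (-0.85). The collagen genes COL1A2 and COL3A1 stayed at or under 0.262 FPKM in all 6 libraries, and the part of feeder or fibroblast RNA in the POU5F1 values was not tested.

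Among the paired members of the POU family, POU5F1 was the member with the highest level in piPS cells. Of 14 members 11 were paired, 7 were at 0 in every library, 2 more had a mean under 1 FPKM, and POU5F1 and POU2F1 were tested. POU2F1, the broadly expressed OCT1, was at 34.1, 30.7 and 18.6 FPKM in piPS and at 8.23, 6.55 and 11.1 FPKM in pXEN-like libraries. Its log2 fold change of -1.56 (SE 0.29, limma adjusted p = 0.0024) turned to 1.38 with spike-in scaling, below the median of all genes there (2.49). POU5F1 was 6.35 to 21.4 times POU2F1 in piPS libraries. POU2F1 was 5.79, 6.22 and 123 times POU5F1 in pXEN-like libraries, the last with POU5F1 at 0.0901 FPKM.

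Of the genes of 23 proteins known as partners or chromatin regulators of POU5F1, 19 were paired and 16 tested, with 8 called lower, 1 called higher and 7 not called, at a median log2 fold change of -1.04. This compares with 30.2% called lower, 23.3% called higher and a median of -0.13 over all genes tested. MTA2, of the NuRD deacetylase complex, was at 132, 75.7 and 45.4 FPKM in piPS and at 2.52, 4.30 and 5.51 FPKM in pXEN-like libraries. SMARCB1, of the SWI/SNF remodelling complex, was at 264, 168 and 135 FPKM in piPS and at 9.50, 13.2 and 20.7 FPKM in pXEN-like libraries. HDAC2, a deacetylase, remained abundant at 393, 342 and 479 FPKM in pXEN-like against 816, 943 and 857 FPKM in piPS libraries. NR2F2, an orphan receptor known to repress POU5F1, was the member called higher, at 5.30, 4.24 and 4.76 FPKM in pXEN-like against 0.0298, 0.848 and 0.400 FPKM in piPS libraries. With spike-in scaling MTA2 remained called lower, SMARCB1 was not called, and HDAC2 and MTA3, another NuRD gene, were at 2.03 and 1.19, below the median of all genes. HDAC2 was also under the limit of 1 with median-of-ratios scaling (-0.95).

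The nearest genes on the chromosome were looked at for comparison. In the RefSeq annotation of Sscrofa11.1, a later build than that of the files, POU5F1 lies on chromosome 7 next to TCF19 and CCHCR1. TCF19, a cell-cycle gene, was at 1.91, 1.84 and 1.09 FPKM in piPS and at 0.277, 0.314 and 0.170 FPKM in pXEN-like libraries, with a mean under the level tested. CCHCR1, a centrosomal coiled-coil gene, was at 5.55, 5.75 and 5.83 FPKM in piPS and at 3.85, 2.07 and 2.89 FPKM in pXEN-like libraries (log2 fold change -0.79, limma adjusted p = 0.015), under the limit of 1. PSORS1C2 and the 3 nearest genes on the other side, among them the pseudogene MIC-1, were not paired and were not analysed here.

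The named genes closest to POU5F1 in pattern over the 6 libraries, by the Euclidean distance of mean-centred log2(FPKM + 1), were CAV1 (distance 1.14), ACSL4 (1.15), SEPTIN6 (1.96), HES6 (2.12) and FABP5 (2.31). With genes that have no symbol counted too, their places in closeness were 1, 2, 9, 11 and 14. CAV1, the caveolar coat protein, was at 380, 322 and 323 FPKM in piPS and at 1.93, 3.61 and 0.814 FPKM in pXEN-like libraries. ACSL4, a long-chain acyl-CoA synthetase, was at 158, 118 and 140 FPKM in piPS and at 0.543, 0.584 and 0.0844 FPKM in pXEN-like libraries. FABP5, a fatty acid binding protein, was at 395, 349 and 406 FPKM in piPS and at 11.2, 5.82 and 4.90 FPKM in pXEN-like libraries. Correlation separates little here, since 1260 of the other 9929 genes (12.7%) had a Pearson's r of at least 0.95 with POU5F1 over 6 libraries that fall into 2 cell types.

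**Figure D5:**
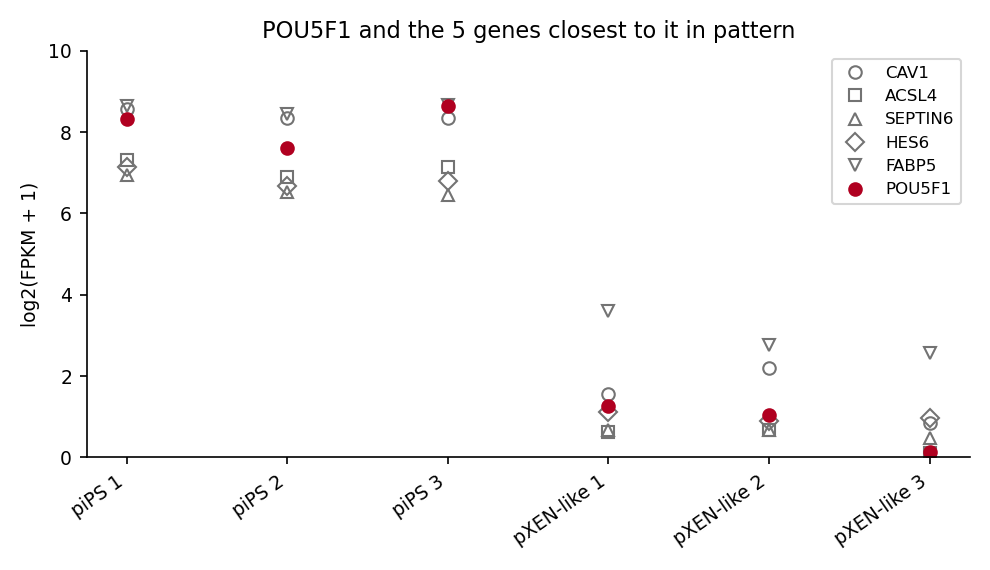
Levels as log2(FPKM + 1) of POU5F1 (red) and of the 5 named genes closest to it in pattern (grey symbols) in each library. All 6 genes are above 6 in every piPS library and below 4 in every pXEN-like library.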

How the data were processed

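RNA-seq libraries, 3 of pXEN-like and 3 of piPS cells, were grouped by their titles. Label text on extraction that refers to retinas, foreign to this study, was set aside. The authors aligned reads to the pig genome Sscrofa10.2 with TopHat2 and deposited FPKM values per gene and library. The program that computed FPKM is not given in the sources used here. The table holds 25322 genes and 92 ERCC spike-ins. The count-based test named in the methods could not be used on FPKM, so limma 3.58.1 (R 4.3.3) was used on log2(FPKM + 1) with an intensity trend, for 9930 genes averaging 1 FPKM or more. Spike-ins were left out of the test. On simulated data with 200 of 9930 genes changed by 2 on the log2 scale, limma recovered 85.5% at an adjusted p under 0.05. The share of genes changed there was far below the 53.5% called in the data, so this rate need not carry over.

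Identifiers were paired with symbols through a table of names, which held 11804 of the 25322 genes. ENSSSCG00000001393 is not in it and was taken as POU5F1 by the rule that chose it. Genes named are POU5F1, list members, the 5 named genes of the most similar pattern, and the 3 neighbours on either side. POU5F1 and the lists were chosen with earlier results of these data known. Some list members are not reported here by name. Copies of POU5F1 elsewhere in the genome could share reads, which was not tested. Alternatives were other pseudocounts, filters, scalings and thresholds, a replicate block, and leaving out each library.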

Additional observations from a re-analysis of the deposited data

How the results depend on the processing

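The log2 fold change of POU5F1 kept its direction and its call in every alternative run, from -8.71 to -4.97, and ran from -7.66 to -7.03 with each library left out in turn. The percentile of POU5F1 rose to 97.8 in piPS and 62.2 in pXEN-like cells when genes at 0 were ranked too, which follows from the added zeros. Genes called higher in pXEN-like cells numbered 2318, against 1333 after rescaling without the 20 highest genes and 7574 with ERCC spike-in scaling; with each library left out they ran from 2157 to 2375. Genes called lower numbered 2995, against 4365 after rescaling without the 20 highest genes, 1955 among genes averaging 5 FPKM or more and 484 with spike-in scaling, and from 2718 to 3131 with each library left out. Higher calls were 43.6% of all calls with the deposited scaling, 23.4% in the fit without the 20 highest genes and 94.0% with spike-ins. The pluripotency list had 5 members called lower, 3 with spike-in scaling, and the endoderm list 11 called higher, 7 among genes averaging 5 FPKM or more, where fewer members were tested.

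Spike-in scaling moved the median of all genes tested by 2.61, so a change of sign is no sign of a change relative to other genes. It reversed ACTA2 (0.43), CCHCR1 (1.69), DNMT3B (0.62), FGFR1 (0.96), HDAC2 (2.03), LIN28A (2.99), MTA3 (1.19), POU2F1 (1.38), SDHA (0.04) and SPARC (1.53). LIN28A was also reversed with quantile normalization (0.12), median-of-ratios scaling (0.12) and without piPS replicate 1 (0.22), in a range of -0.25 to 0.22 with each library left out. OTX2 was reversed after the rescaling (-0.07) and RPL4 with quantile normalization (-0.42). The cause of the reversals in other settings was not tested. For single genes, 547 recomputed values kept their direction and their side of an adjusted p of 0.05, 24 lost and 1 gained significance. This count leaves the fold limit aside: FGFR1 was under it with quantile normalization (-0.95), HDAC2 with median-of-ratios scaling (-0.95), and CCHCR1 past it after rescaling without the 20 highest genes (-1.41).

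In the fit with a replicate block, POU5F1 was at -7.38 (adjusted p = 0.00036 from limma), and 2317 genes were called higher and 2975 lower. Deviations of same-numbered libraries correlated at -0.05, -0.01 and -0.09, and those of other pairs at -0.03 to 0.09, so equal numbers were not taken as pairs. Without counts, the counting error of a level such as 0.0901 FPKM is unknown.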

Other observations

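LIF signalling supports pluripotent cells through STAT3. Of its 7 genes listed, 5 were paired and tested, with 1 called lower and 2 called higher in pXEN-like cells, against 30.2% and 23.3% of all genes tested. STAT3, the transcription factor at the end of the pathway, was at 38.9, 19.1 and 13.3 FPKM in piPS and at 0.767, 0.430 and 0.494 FPKM in pXEN-like libraries (log2 fold change -3.86, adjusted p = 0.00015 from limma). IL6ST, the shared receptor chain gp130, was at 1.10, 1.30 and 2.83 FPKM in piPS and at 11.8, 11.7 and 9.05 FPKM in pXEN-like libraries (log2 fold change 2.16, adjusted p = 0.00047 from limma). JAK1, the kinase between them, had a log2 fold change of 1.53 (adjusted p = 0.0065 from limma).

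Of 25 genes of FGF signalling, 18 were paired and 16 tested, with 4 called lower and 3 higher in pXEN-like cells, shares no larger than the 30.2% and 23.3% of all genes tested. The feedback inhibitor SPRED2 was called lower, at 5.68, 3.96 and 2.70 FPKM in piPS and at 0.527, 0.153 and 0.432 FPKM in pXEN-like libraries. The receptor FGFR2, called higher, lost its call in 5 of the 6 fits that left out a library (limma adjusted p = 0.051 to 0.12, and 0.015 without piPS replicate 1). SPRED2 was not called with spike-in scaling. The receptor FGFR1 had a log2 fold change of -1.26 (adjusted p = 0.011 from limma), which turned to 0.96 with spike-in scaling, below the median of all genes there (2.49). Of 10 housekeeping genes 6 were paired, with SDHA called lower (log2 fold change -2.97), RPL4 called higher (1.11) and 4 not called. SDHA was at 0.04 with spike-in scaling, below that median, and RPL4 was at -0.42 with quantile normalization.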
